A study of Rattus norvegicus with 6 samples.

Results

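The 8 genes followed here, 5 that encode Kv1 (Shaker-type) potassium channel pore subunits (Kcna1, Kcna2, Kcna3, Kcna4 and Kcna6) and 3 that encode Kv beta subunits (Kcnab1, Kcnab2 and Kcnab3), were sequenced as RNA from dorsal root ganglia of rats, which house the cell bodies of the body's sensory neurons. They were chosen by gene family, and the 8 are among 14346 genes listed in at least 1 library. The comparison is between 2 groups of 3 libraries, both taken on day 7 after surgery: a sham operation, and partial sciatic nerve ligation (pSNL), a neuropathic pain model in which part of the nerve is tied so that injured and spared axons share the ganglion. No source used here gives the strain, sex or age of the rats, the ganglia taken, any pooling, or whether each library is 1 animal, so p-values measure only how these libraries spread, and that spread may be technical.

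Kv1 pore subunits assemble, as identical or mixed sets, into a channel that opens at small depolarisations and restrains repetitive firing. In myelinated axons Kv1.1 and Kv1.2, the products of Kcna1 and Kcna2, sit at the juxtaparanode beside the node of Ranvier and at the axon initial segment. Kv1.4 (Kcna4) gives a rapidly inactivating current and is known from small sensory neurons, Kv1.6 (Kcna6) joins mixed channels, and Kv1.3 (Kcna3) is best known from T cells. Kv beta subunits bind the cytoplasmic face of the pore: Kv beta 1 (Kcnab1) can inactivate the channel with its N-terminus, Kv beta 2 (Kcnab2) helps channels reach the axon, and Kv beta 3 (Kcnab3) is a less common relative.

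The upstream sequences of 4 of these genes are shown because they differ sharply in CpG content, the substrate of the DNA methylation that has been linked to Kcna2 in sensory neurons. A RefSeq promoter table of the build GRCr8 held a 300-base window, from 250 bases before to 50 after the annotated start, for 7 of the 8 genes. The 150 bases before the start are printed 5′ to 3′, with CpG in capitals, for Kcna2 (chr2:197393380-197393529, plus strand), Kcna4 (chr3:114215186-114215335, plus strand), Kcnab1 (chr2:151614401-151614550, plus strand) and Kcnab2 (chr5:168270761-168270910, minus strand). No source used here names the authors' build, so these positions belong to the table and not to the counts.
Kcna2 promoter: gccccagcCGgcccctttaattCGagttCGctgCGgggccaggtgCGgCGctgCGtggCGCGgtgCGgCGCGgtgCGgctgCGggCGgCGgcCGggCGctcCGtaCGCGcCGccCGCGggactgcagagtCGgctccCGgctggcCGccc
Kcna4 promoter: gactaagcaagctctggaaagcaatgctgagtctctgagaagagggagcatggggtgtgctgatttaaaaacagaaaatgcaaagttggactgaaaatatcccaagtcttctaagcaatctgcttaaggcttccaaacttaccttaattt
Kcnab1 promoter: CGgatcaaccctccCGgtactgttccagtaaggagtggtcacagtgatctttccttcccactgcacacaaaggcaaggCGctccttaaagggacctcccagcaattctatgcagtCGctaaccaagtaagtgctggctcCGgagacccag
Kcnab2 promoter: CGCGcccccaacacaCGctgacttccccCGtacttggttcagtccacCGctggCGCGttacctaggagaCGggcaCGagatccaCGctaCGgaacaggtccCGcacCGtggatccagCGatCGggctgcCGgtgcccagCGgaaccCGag

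The 300-base windows of Kcna2 and Kcna3 held 40 and 36 CpG and were 73.3% and 74.0% G or C. That of Kcnab2 held 28 CpG, Kcnab3 15 and Kcnab1 9, while Kcna6 held 3 and Kcna4 held 1. The median over 33469 windows was 7 CpG, with 51.7% G or C. In RefSeq's gene table of that build Kcna3, Kcna2 and Kcna10 are neighbours, as are Kcna5, Kcna1 and Kcna6, with no other protein-coding gene within either cluster.

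On the deposited FPKM scale, which corrects for gene length and library depth, the beta subunits Kcnab2 and Kcnab1 had higher levels than every pore subunit. In sham libraries Kcnab2 was at 167, 166 and 141 FPKM (replicates 1 to 3) and Kcnab1 at 51.5, 49.4 and 46.5 FPKM. Kcna6 followed at 25.3 to 26.9 FPKM and Kcna4 at 7.14 to 9.07 FPKM, and the ranges of these 4 genes did not overlap. Kcna1 (0.80 to 1.43 FPKM) and Kcna2 (0.70 to 1.56 FPKM) overlapped each other, and Kcna2 also overlapped Kcnab3, which was at 0.75 and 0.86 FPKM in sham replicates 2 and 1 and at 13.0 FPKM in sham replicate 3. In pSNL the first 5 genes by median came in the same order and these neighbours did not overlap. Kcna2 (0.69 to 1.68 FPKM) overlapped both Kcna1 (1.56 to 3.70 FPKM) and Kcnab3 there.

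Kcna6 therefore made up most of the Kcna level in both groups. Its share of the FPKM summed over the 5 Kcna genes was 71.1% ± 4.0 in sham and 72.0% ± 2.06 in pSNL (SD, n = 3 each). Kcna4 held 22.6% ± 2.28 in sham and 17.9% ± 2.99 in pSNL, with 20.1% to 24.6% in the single sham libraries and 14.5% to 19.9% in the pSNL libraries. Kcna1 held 2.25% to 3.88% in sham and 5.21% to 9.77% in pSNL. Neither share overlapped between groups, that of Kcna4 being lower and that of Kcna1 higher in pSNL. For comparison, the levels of 21.5% of the 11091 genes tested below did not overlap between groups. Shares of 1 total depend on each other and were not tested.

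The level of Kcna6 carries an uncertainty that the other members do not. Its estimated count was fractional in all 6 libraries, as was that of Kcna5, a Kv1 gene outside the 8, while the counts of the other 7 members were whole in all 6 libraries. The counts of Kcna5 and Kcna6 added up to a whole number, within 0.02, in 6 of 6 libraries (737 to 917), so the estimate divided reads between these 2 genes. Kcna6 received 92.3% to 93.7% of the sum in 5 libraries and 89.2% in pSNL replicate 3. Kcna5, as listed, was at 7.52 to 7.95 FPKM in sham and 7.09 to 10 FPKM in pSNL, a level that overlaps Kcna4's. With Kcna5 counted in, Kcna6 made up 54.5% to 62.2% of the Kcna level. The share of Kcna4 was then 16.51% to 20.2% in sham and 12.2% to 16.53% in pSNL, so its groups overlapped, at sham replicate 3 and pSNL replicate 1.

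**Figure D1:**
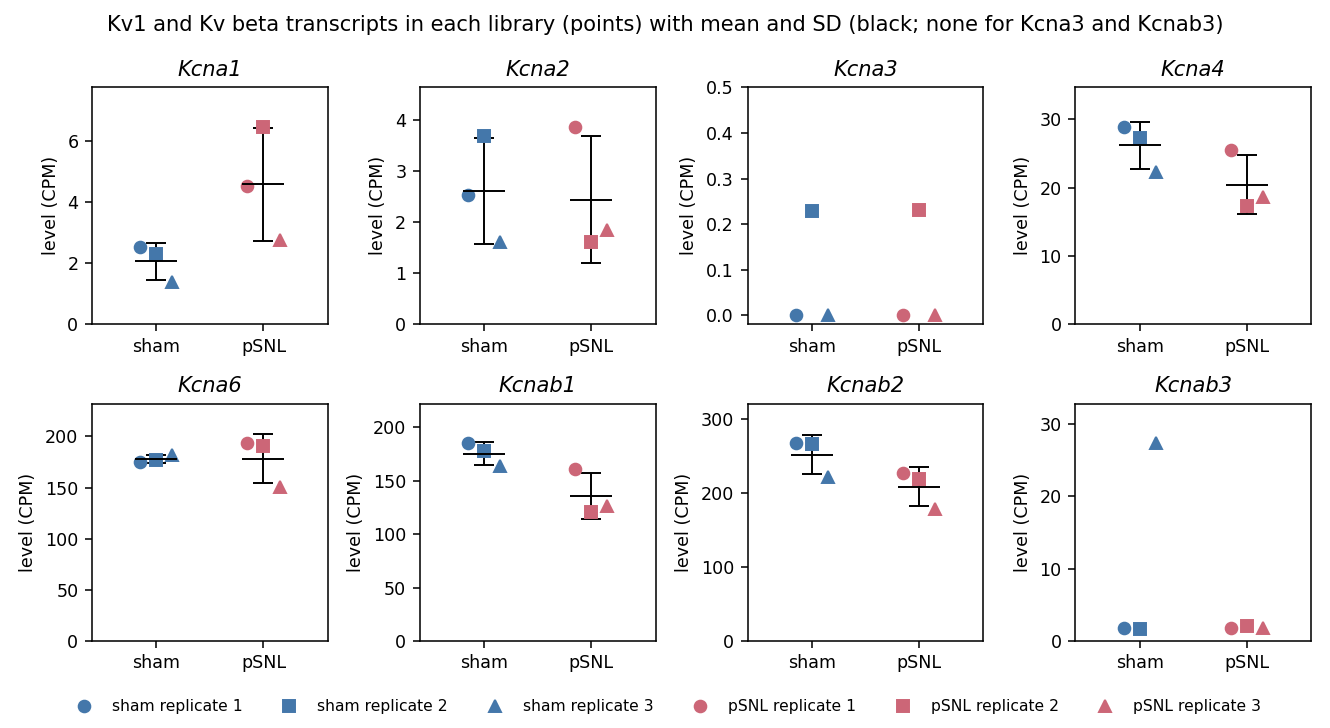
Level of each Kv1 and Kv beta gene in CPM, the read count scaled to library size (vertical axes), in 3 sham and 3 pSNL libraries, with the mean and SD in black where given. Kcnab1 and Kcna1 have groups that do not overlap, and Kcnab3 is at 27.4 CPM in sham replicate 3 and between 1.61 and 2.08 CPM elsewhere.

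The fold changes compare each gene with itself, in CPM scaled to library size (TMM). Of the 8 members 6 passed edgeR's filter on low counts; Kcna3 and Kcnab3 did not. None of the 6 passed an adjusted p of 0.05 in edgeR's quasi-likelihood test, where 0.46% of the 11091 tested genes did. None passed in DESeq2 either (2.94% of those genes did). In edgeR's test 3 members (Kcna1, Kcnab1 and Kcnab2) reached an unadjusted p below 0.05, as did 15.5% of tested genes. The groups did not overlap for 2 of the 6 (Kcna1, higher, and Kcnab1, lower), against 21.5% of tested genes. A negative fold change was found for 4 of the 6 (50.6% of tested genes), and the median log2 fold change of the 6 was -0.18, against -0.002 over all tested genes.

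Kcnab1 was the member with the smallest p. It was at 185, 178 and 164 CPM in sham replicates 1 to 3 and at 161, 121 and 126 CPM in pSNL replicates 1 to 3. All pSNL values lay below all sham values, although pSNL replicate 1 and sham replicate 3 differed little. The fitted change was -22.6% (95% interval -35.2% to -7.5%; log2 fold change -0.37 ± 0.12 SE), with an unadjusted p of 0.00944 and an adjusted p of 0.169 in edgeR's test. Without pSNL replicate 1 the gene passed the threshold (log2 fold change -0.50, edgeR adjusted p = 0.0425, where 1.92% of tested genes passed), and over the other alternatives its adjusted p lay between 0.108 and 0.463.

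Kcnab2, the most abundant member, was at 267, 267 and 221 CPM in sham and at 228, 219 and 178 CPM in pSNL. The fitted change was -17.3% (95% interval -30.6% to -1.4%; log2 fold change -0.27 ± 0.11 SE, edgeR adjusted p = 0.289). The groups overlapped, because sham replicate 3 lay below pSNL replicate 1. Leaving out sham replicate 3 gave a log2 fold change of -0.36 (edgeR adjusted p = 0.160), and leaving out pSNL replicate 3 gave -0.18 (adjusted p = 0.443).

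In sham replicate 3 the summed level of 8 ganglion identity genes (such as Prph and Tubb3) was 10510 CPM, against 13070 to 13920 CPM in the other 5 libraries. In the same library 9 central glia markers summed to 1952 CPM, against 29.7 to 64.0 CPM elsewhere. Kcnab2, Kcnab1, Kcna4, Kcna1 and Kcna2 each had their lowest sham value there. Kcna6 (182 CPM) and Kcnab3 (27.4 CPM) instead had their highest sham value there. Without that library the log2 fold changes of Kcnab2, Kcnab1, Kcna4 and Kcna2 were -0.36, -0.42, -0.46 and -0.34, further from 0 than with it. That of Kcna1 was 0.92, nearer to 0 than with it, and that of Kcna6 was 0.014 (0.002 with it). In a bulk ganglion, fewer cells of a type and less RNA per cell cannot be told apart.

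Kcna4 was at 28.9, 27.3 and 22.3 CPM in sham and at 25.4, 17.3 and 18.6 CPM in pSNL. As for Kcnab2, sham replicate 3 was the lowest sham library and pSNL replicate 1 the highest pSNL library, and the groups overlapped. The log2 fold change was -0.36 ± 0.18 SE (95% interval -0.75 to 0.05, edgeR adjusted p = 0.382). Leaving out pSNL replicate 1 gave -0.54 (edgeR adjusted p = 0.186), and leaving out pSNL replicate 2 gave -0.26 (adjusted p = 0.704).

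Kcna6 gave a tight interval around no change. It was at 175, 177 and 182 CPM in sham and at 193, 191 and 151 CPM in pSNL. The log2 fold change was 0.002 ± 0.11 SE, with a 95% interval of -14.7% to 17.6% (edgeR adjusted p = 0.997). The spread in pSNL (SD 23.9 CPM) was wider than in sham (SD 3.56 CPM), with pSNL replicates 1 and 2 above and pSNL replicate 3 below every sham library. With Kcna5 and Kcna6 counts summed, the log2 fold change was 0.012 (edgeR adjusted p = 0.967).

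Kcna1 was low in every library and was the member with the highest fold change. Its counts were 11, 10 and 6 in sham and 20, 28 and 12 in pSNL, or 1.38 to 2.52 CPM and 2.75 to 6.47 CPM. Each pSNL library was above each sham library, by a margin of 1 count between pSNL replicate 3 and sham replicate 1. The log2 fold change was 1.14 ± 0.42 SE, a 2.20-fold difference with a 95% interval of 0.20 to 2.08 on the log2 scale (edgeR adjusted p = 0.241). It ranged from 0.81 to 1.4 with 1 library left out.

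Kcna2 had 11, 16 and 7 counts in sham and 17, 7 and 8 in pSNL, or 1.61 to 3.67 and 1.62 to 3.86 CPM. The groups covered the same range. The log2 fold change was -0.09 ± 0.48 SE, and its 95% interval, from -54.8% to 95.2%, shows how little this depth can resolve (edgeR adjusted p = 0.949). Its sign turned positive without sham replicate 2 (0.23), pSNL replicate 2 (0.12) or pSNL replicate 3 (0.07).

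The deposited gene lengths are 1746 bases for Kcna1 and 2324 bases for Kcna2, against 6736 bases for Kcna6 and 3125 bases for Kcna4. Whether reads from longer transcripts of Kcna1 and Kcna2 fell outside these models was not tested.

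Kcna3 was almost unread. It had 1 count in sham replicate 2 and 1 in pSNL replicate 2, and was absent from the other 4 files. A count of 0 allows up to 0.68 to 0.70 CPM per library (3 counts of each total). The 7 T cell markers, the cell type in which Kv1.3 is best known, summed to between 2.04 and 3.9 CPM, of which Lck, a kinase of T cells, made up 0.908 to 3.005 CPM. The receptor genes Cd3e and Cd3d and the co-receptor gene Cd28 were each at 0 in at least 2 libraries and at most at 0.458 CPM in any. The remaining Kv1 genes were also low, Kcna7 at 2 to 7 counts and Kcna10 at 0 or 1 count per library.

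Kcnab3 was set by 1 library. It had 119 counts (27.4 CPM) in sham replicate 3, and 8 and 7 counts in sham replicates 1 and 2 and 8, 9 and 8 in pSNL. Its level in sham replicate 3 was 13.1 times its highest level elsewhere, and the other 5 libraries lay between 1.61 and 2.08 CPM. Without a filter on low counts its log2 fold change was -2.41 with all libraries and 0.14 without sham replicate 3 (edgeR adjusted p = 0.559 and 0.945).

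The markers of central nervous tissue stood out in the same library. The 6 central neuron markers summed to 203 CPM in sham replicate 3, against 1.83 to 4.36 CPM elsewhere. Skeletal muscle markers, 7 in the files, were high both there (514 CPM) and in pSNL replicate 3 (955 CPM), against 13.5 to 19.0 CPM in the others, while Kcnab3 was at 1.84 CPM in pSNL replicate 3. By a rule chosen after these values were seen, 56 genes exceeded 5 CPM and 10 times their highest level elsewhere in sham replicate 3; Kcnab3 was one of them, and 12 of the 15 central glia and central neuron markers were others. The part of central tissue in the Kcnab3 value was not tested.

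**Figure D2:**
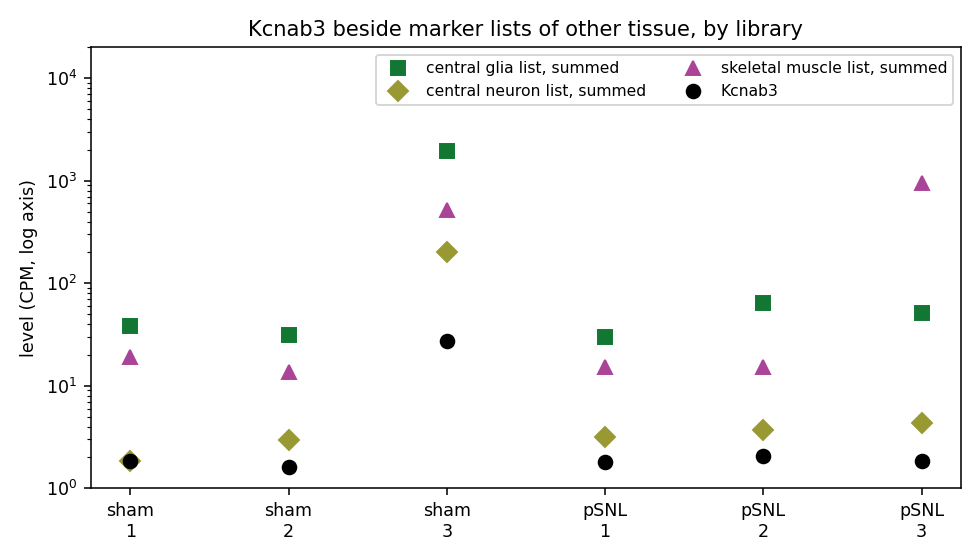
Kcnab3 (black) and the summed levels of central glia, central neuron and skeletal muscle markers in each library, in CPM on a log axis. Kcnab3 and both central lists are high in sham replicate 3 (27.4, 1952 and 203 CPM), while the muscle list is high in sham replicate 3 and pSNL replicate 3.

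Beta subunit transcripts were fewer per pore subunit transcript in every pSNL library. The FPKM summed over the 3 Kcnab genes was 219, 217 and 200 (200.5) in sham and 192, 173 and 147 in pSNL, and that over the 5 Kcna genes 36.9, 37.2 and 35.5 in sham and 41.2, 37.9 and 29.9 in pSNL. Their ratio was 5.94, 5.82 and 5.64 in sham and 4.67, 4.56 and 4.91 in pSNL. The groups did not overlap (21.5% of tested genes had levels that did not overlap). They also did not overlap with Kcna5 counted among the Kcna genes (4.64 to 4.89 in sham, 3.68 to 3.88 in pSNL) or with Kcnab3 left out (5.28 to 5.92 and 4.53 to 4.88). The ratio combines the members after their values were known, so no test is given; being taken within a library, it does not depend on library scaling.

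**Figure D3:**
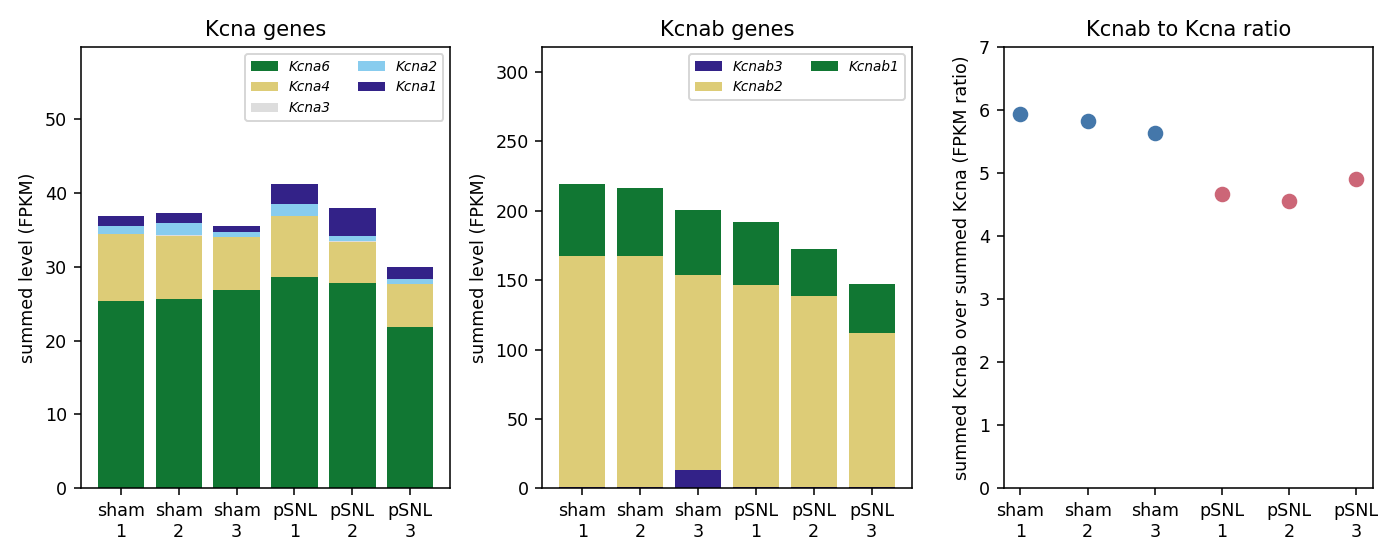
Summed FPKM of the Kcna genes (left) and of the Kcnab genes (middle) in each library, stacked by gene, and the ratio of the sums (right, axis from 0; sham blue, pSNL red). Kcna6 and Kcnab2 fill most of each bar, and the ratio is 5.64 to 5.94 in sham and 4.56 to 4.91 in pSNL.

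Kv1 channels are held at the juxtaparanode and initial segment by adhesion proteins, secreted LGI proteins with their ADAM receptors, and DLG scaffolds. Of 13 such genes 11 were tested. By edgeR 0 passed the threshold, 3 reached an unadjusted p below 0.05 (15.5% of tested genes) and by DESeq2 2 passed (2.94%). Dlg4, which encodes the scaffold PSD-95, was at 207, 208 and 248 CPM in sham and 145, 173 and 144 CPM in pSNL (log2 fold change -0.52, edgeR adjusted p = 0.0642). It was highest in sham replicate 3, the library with high central tissue markers, and the part of that tissue was not tested. Lgi3, a secreted protein of the Kv1 complex, was at 498, 534 and 524 CPM in sham and 423, 301 and 352 CPM in pSNL (-0.53, adjusted p = 0.0801). For both genes every pSNL library lay below every sham library; 10.4% of tested genes were apart in that direction.

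Its relative Lgi2 was apart the other way, as were 11.1% of tested genes, at 3.21 to 4.60 CPM in sham and 6.65 to 17.6 CPM in pSNL (log2 fold change 1.46, edgeR adjusted p = 0.131). Adam23, an LGI receptor, overlapped, with 51.3 to 67.4 CPM in sham and 104, 126.5 and 52.5 CPM in pSNL (0.66, adjusted p = 0.412). Over the 11 genes the median was 0.10. Cntnap2 and Adam22, central members of this complex, were not found by symbol among the listed genes, so they could not be tested.

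**Figure D4:**
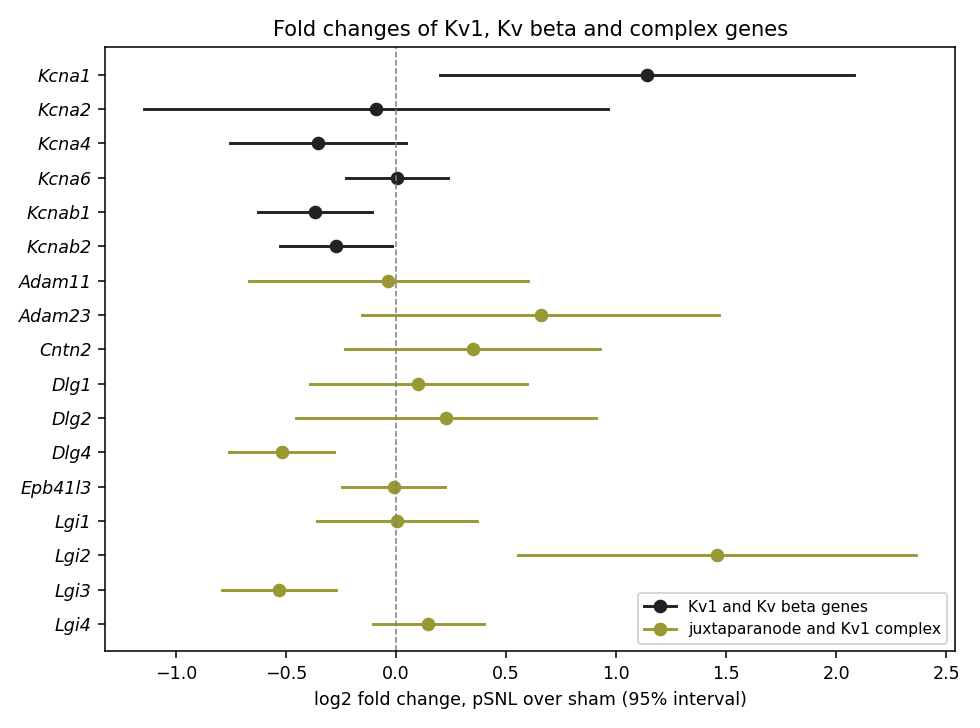
Log2 fold change of pSNL over sham (points, horizontal axis) with 95% intervals from edgeR's fit for the 6 tested Kv1 and Kv beta genes (black) and 11 genes of the juxtaparanode and Kv1 complex (olive). Intervals are narrowest for abundant genes such as Kcna6 (-0.23 to 0.23) and widest for Kcna2 (-1.15 to 0.97).

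Of the 9 genes tested for the node, paranode and initial segment, edgeR placed 0 past the threshold and 1 at an unadjusted p below 0.05 (15.5% of tested genes), and DESeq2 placed 1 past it (2.94%). Their median log2 fold change was 0.17. Ank3, the ankyrin G scaffold of the node and initial segment, was at 176 to 177 CPM in sham and 196 to 199 CPM in pSNL (log2 fold change 0.17, edgeR adjusted p = 0.327). Gldn and Cntn1, adhesion proteins of the node and paranode, had log2 fold changes of 0.37 and 0.22 (edgeR adjusted p = 0.386 and 0.465).

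Of 10 genes listed as binding and trafficking partners of potassium channels, mostly of Kv1, 0 passed by edgeR or by DESeq2. By edgeR 2 reached an unadjusted p below 0.05 (15.5% of tested genes). The median was 0.21. Kif5b, a kinesin that carries Kv1 channels into axons, was at 70.6 to 80.5 CPM in sham and 114, 119.5 and 80.3 CPM in pSNL (log2 fold change 0.48, edgeR adjusted p = 0.158). Cttn, the actin-binding protein cortactin, was at 189 to 210 CPM in sham and 226 to 259 CPM in pSNL (0.26, adjusted p = 0.192). Mapre1, a microtubule end-binding protein, and the kinase Src had log2 fold changes of 0.19 and 0.23 (adjusted p = 0.326 and 0.354).

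Factors linked to Kcna2 transcription, together with 2 injury factors, formed a list of 10, of which 9 were tested. Of these edgeR placed 1 past the threshold and 2 at an unadjusted p below 0.05 (15.5% of tested genes), and DESeq2 placed 2 past it (2.94%). Sox11, a transcription factor of axon growth, was at 2.99 to 4.36 CPM in sham and at 9.76, 19.9 and 17.4 CPM in pSNL. Its log2 fold change was 2.12 (edgeR adjusted p = 0.024), and 0.442% of tested genes passed edgeR's threshold with a higher level in pSNL. Atf3, induced in injured neurons, was at 11.5 to 22.8 CPM in sham and at 97.6, 294 and 234 CPM in pSNL (3.64, adjusted p = 0.0891). The pSNL library with the lowest Atf3 and Sox11, replicate 1, was also the one with the highest Kcnab1, Kcnab2, Kcna4, Kcna2 and Kcna6. Kcna1, Kcna3 and Kcnab3 were instead highest in pSNL replicate 2. A link between these levels was not tested.

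The zinc finger factor Mzf1 was at 15.4 to 19.5 CPM in sham and 14.8 to 19.95 CPM in pSNL, and the DNA methyltransferase Dnmt3a at 2.52 to 5.97 and 3.67 to 4.31 CPM (edgeR adjusted p = 0.921 and 0.872). Dnmt1, the maintenance methyltransferase, and Ehmt2, the histone methyltransferase G9a, had log2 fold changes of 0.28 and 0.08 (adjusted p = 0.459 and 0.749).

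Motifs were searched by their letters on both strands of the 300-base windows. They were AGTGGGGA for MZF1 (in 1.75% of all windows), TGAGTCA for AP-1 (4.63%), TGACGTCA for CRE (1.83%) and AACAAT for SOX factors (11.7%); none of these contains another. Among the 7 members with a window there were 2 matches, both just after the start and shown with the match in capitals and up to 11 bases on each side. They lie in Kcnab1 (chr2:151614556-151614585, plus strand), where the match begins at base 17 (the annotated start is base 1), and in Kcna6 (chr4:161262324-161262351, minus strand), where it begins at base 13 and the letters are on the reverse strand. The Kcna2 window held none of these letters.
Kcnab1 MZF1 letters: gtccgaggatgAGTGGGGAggggtcttgag
Kcna6 SOX letters: tagatggctgtATTGTTtattgacattg

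Markers of large myelinated sensory neurons, in which axonal Kv1 channels are best known, had mostly negative fold changes (9 of 12, against 50.6% of tested genes), with a median of -0.21. Of the 12, edgeR placed 0 past the threshold and 6 at an unadjusted p below 0.05 (15.5% of tested genes), and DESeq2 placed 4 past it (2.94%). Of those 6, 5 had negative fold changes and Spp1, a secreted phosphoprotein, had a positive one (0.33, edgeR adjusted p = 0.272). The summed level of all 12 was 42260, 43890 and 34860 CPM in sham and 34960, 31120 and 31850 CPM in pSNL, and the neurofilament gene Nefl had a log2 fold change of -0.43 (edgeR adjusted p = 0.101). Vsnl1, Etv1 and Scn1a, markers of the same neurons, had -0.60, -0.42 and -0.42 (adjusted p = 0.0861, 0.113 and 0.119). Vsnl1 (417 CPM) and Scn1a (169 CPM) were highest in sham replicate 3, the library with high central tissue markers. Etv1 (182 CPM) had its lowest sham value there. The part of central tissue in these values was not tested. The ganglion identity genes, 8 of 9 found in the files, were high in every library, at 10510 to 13500 CPM summed in sham and 13070 to 13920 CPM in pSNL. The part of these shifts in the Kv1 and Kv beta values was not tested.

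Glial and immune markers also differed in level between libraries. Of 8 Schwann cell markers edgeR placed 0 past the threshold and 3 at an unadjusted p below 0.05 (15.5% of tested genes), and DESeq2 placed 1 past it (2.94%; summed 18460 to 26590 CPM in sham and 20650 to 31920 CPM in pSNL). Of 8 macrophage markers edgeR placed 0 past the threshold and 6 at an unadjusted p below 0.05 (15.5% of tested genes), DESeq2 placed 4 past it (2.94%), and their summed level was 163 to 210 CPM in sham and 286 to 477 CPM in pSNL. Satellite glia markers summed to 558 to 1370 CPM in sham, the highest in sham replicate 3, and 542 to 613 CPM in pSNL. Of these 6 edgeR placed 0 past the threshold and 3 at an unadjusted p below 0.05 (15.5% of tested genes), and DESeq2 placed 2 past it (2.94%). The log2 fold changes of those 3 ran from -1.24 to 0.97, so they did not share a direction.

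Genes with the pattern most like the most abundant member of each family were named by their Pearson correlation of log2 CPM over the 6 libraries, as a description. For Kcna6 they were Tspyl4 (r = 0.99), Ahdc1 (0.988) and Rnf125 (0.982). Like Kcna6 these were lowest in pSNL replicate 3: Tspyl4 was at 99.0 to 108 CPM in sham and at 125, 127 and 71.8 CPM in pSNL. For Kcnab2 they were Arid4a (0.985), Mdfic (0.983), Slc35g2 (0.983) and Lrpap1 (0.982), and Lrpap1 was at 126 to 143 CPM in sham and 113 to 129 CPM in pSNL. The 6 points share library depth and scaling, and the best of 11091 genes over 6 libraries can correlate highly with any gene.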

How the data were processed

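RNA was sequenced from 3 sham and 3 pSNL libraries, grouped by sample title. Per the labels, RNA was taken with Trizol from frozen ganglia and 1 µg went into each library. Each deposited file lists genes with their length, FPKM and expected count, per the file headers. CASAVA 1.4 and Bowtie2 appear in the submitters' processing notes; no source used here gives the quantifier, build or strand setting. Only genes above 0 are listed, so an absent gene was taken as 0. Libraries held 4310643 to 4416121 expected counts, so 1 CPM is a little over 4 counts. Symbols came from RefSeq's gene table of GRCr8 (14227 by gene ID, 6 by transcript, 113 unmatched).

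Expected counts were rounded and fitted with edgeR 4.0.16 in R 4.3.3 (TMM, default filter, robust quasi-likelihood F test, Benjamini-Hochberg over 11091 genes, threshold 0.05). The fit was tested on simulated data. Standard errors and 95% intervals come from the test statistic. FPKM, as computed by the authors, was used for levels between genes. Alternatives were DESeq2 1.42.0, limma 3.58.1 on log2(FPKM + 1), other scaling and filters, the replicate number as a block and each library left out. The members, lists and naming rule (all members, and in each list genes past the threshold and the 4 with the smallest p) were chosen with earlier results of these data known. Marker lists of other cells are given by counts and sums. Mzf1, Dnmt3a, Spp1 and the T cell genes other than Lck lie outside the rule and were named after their values were seen. The limit that a count of 0 allows covers counting error only; the intervals include the spread between libraries. A few genes that the naming rule selects are not reported here.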

Additional observations from a re-analysis of the deposited data

How the results depend on the processing

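Across all alternatives no member passed the threshold, except Kcnab1 without pSNL replicate 1; the count of members past it therefore ranged from 0 to 1 with 1 library left out. Fold changes of Kcna1 were positive and those of Kcnab1, Kcnab2 and Kcna4 negative in every alternative run, with log2 fold changes of 0.71 (limma on log2(FPKM + 1)) to 1.4 for Kcna1, -0.50 to -0.30 for Kcnab1, -0.36 to -0.18 for Kcnab2 and -0.54 to -0.26 for Kcna4. Kcna6, near 0 throughout, was -0.005 with DESeq2 size factors in edgeR, -0.009 with DESeq2, -0.002 with limma at either pseudocount (1 or 0.1), -0.003 without a filter on low counts and -0.006 with the replicate block. With 1 library left out, Kcna6 lay between -0.056 and 0.107 and Kcna2 between -0.577 and 0.234. The count of all genes past the threshold was 51 and moved to 332 with DESeq2, 89 without a filter and 111 with the replicate block, and from 5 to 217 with 1 library left out. The replicate block changed no member's call. Whether replicate numbers pair the libraries cannot be decided from 3 libraries per group. Same-numbered deviations correlated at 0.03, 0.01 and 0.12, and the other pairs at -0.1 to 0.1. Not every library correlated best with its own number. Shares by counts per kilobase moved by less than 1 SD. Depth limits Kcna1, Kcna2, Kcna3 and Kcnab3 most, at 28 or fewer counts per library outside sham replicate 3. The alternative with Kcna5 and Kcna6 summed was chosen after seeing the data.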

Other observations

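Other voltage-gated potassium pore subunits, outside the Kv1 family, were set beside the 8 genes. Of 20 listed, 14 were tested. By edgeR 0 passed the threshold and 5 reached an unadjusted p below 0.05 (15.5% of tested genes), and by DESeq2 3 passed (2.94%). Fold changes were negative for 12 of the 14, against 50.6% of tested genes (median -0.23 on the log2 scale). Kcnh2, an ERG channel, was at 235 to 265 CPM in sham and 183 to 203 CPM in pSNL (log2 fold change -0.38, edgeR adjusted p = 0.0843). Kcnc2, which encodes a fast Kv3 channel, was at 16.7 to 26.2 CPM in sham and 13.2 to 14.8 CPM in pSNL (log2 fold change -0.62, edgeR adjusted p = 0.167). It was highest in sham replicate 3, the library with high Kcnab3 and central tissue markers, and the part of that tissue was not tested.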
